A study of Mus musculus with 4 samples.

Results

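Genes that encode the nucleolar machinery of ribosome production were compared between FACS-sorted tdTomato+ kidney cells of control and *Eya1*cKO mouse embryos. The genes were taken by symbol from a list of 50 names covering RNA polymerase I, nucleolar proteins, the protein cores of small nucleolar RNA particles, and the assembly factors of the small and the large ribosomal subunit. All 50 were found among the 52636 genes in the deposited count tables, and all 50 passed the filter on low counts. RNA-seq was carried out on 4 libraries, 2 per genotype. Control embryos carried *Eya1*CreER and the tdTomato reporter, and *Eya1*cKO embryos carried the same alleles together with *Eya1* fl/fl. Both genotypes thus carried *Eya1*CreER, and how this allele was made is not given in the sources used here. The cells sorted were those in which the *Eya1*-driven CreER had recombined the reporter after tamoxifen. Kidneys were taken about 48 h after tamoxifen was started, at about E12.75. Each library was made from 5000 sorted cells, and cell suspensions of a genotype had been combined before sorting.

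Ribosomes are built in the nucleolus, where RNA polymerase I transcribes the ribosomal RNA precursor. Box C/D particles guide 2'-O-methylation of this RNA and box H/ACA particles guide pseudouridylation, while large assemblies of U3 and UTP proteins fold and cleave it into the parts of the small and large subunits. Growing and dividing cells, such as nephron progenitor cells (NPCs) of the embryonic kidney, make many ribosomes, and genes of this machinery are among the best known targets of the Myc family of transcription factors. Eya1 is a phosphatase and transcriptional coactivator needed to keep NPCs undifferentiated.

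The libraries held from 17457452 to 37999342 reads on genes, and the control libraries were the deeper ones. Reads lying on no gene made up from 12.9% to 13.9% of the reads recorded for a control library and from 20.9% to 22.7% for an *Eya1*cKO library. Reads not aligned made up from 6.32% to 6.69% and from 12.7% to 12.9%. *Eya1* itself had 6612 and 6420 reads in the control libraries against 377 and 219 after deletion. Its log2 fold change was -3.60 ± 0.18 (SE, n = 2 libraries per genotype, edgeR adjusted *P* = 1.9e-04). These reads were summed over all exons and do not separate the deleted allele. Markers of other cell types also differed between the genotypes. Of 9 NPC markers 8 fell, with their summed level at 1590 CPM (counts scaled to the TMM-adjusted library total) in both controls and at 357 and 332 CPM in *Eya1*cKO. *Six2*, which keeps NPCs self-renewing, went from 246 to 10.6 CPM. All 8 podocyte markers rose, from sums of 532 and 538 to 2480 and 2470 CPM, and all 8 endothelial markers rose, from 622 and 636 to 1120 and 1140 CPM. Adrenal cortex markers, near 0 in the controls for *Hsd3b1* and *Cyp21a1*, rose in 7 of the 7 tested, from sums of 19.1 and 12.2 to 729 and 693 CPM, and 9 of 11 sympathoadrenal markers rose, with sums of 33.5 and 39.1 against 572 and 600 CPM, while 1 (*Elavl4*, -1.80) fell. Of 6 ureteric markers, all below 0 with a median of -1.51, 2 fell, and their sums went from 161 and 167 to 86.4 and 55 CPM. In stromal markers 1 of 7 fell and 2 rose, and the 8 macrophage markers had log2 fold changes from -0.55 to 0.92. The 9 erythroid markers were summed at 0 to 1.37 CPM and were not tested.

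The expression of the nucleolar genes was lower in *Eya1*cKO as a group. Reads on the 50 genes made up 0.899% and 0.907% of all gene reads for the controls, against 0.603% and 0.601% for *Eya1*cKO. The libraries of each genotype thus lay close together and the genotypes were well apart. In the test across all genes, 22 of the 50 fell at an adjusted *P* under 0.05 in edgeR and 0 rose (29 and 0 by DESeq2's Wald test). Among the 19041 genes tested, 4.41% fell and 5.15% rose, and among the 8728 genes tested whose mean CPM lay within the range of these 50, 8.96% fell. The fitted log2 fold change was below 0 for 49 of the 50 genes, with a median of -0.63, against a median of 0.02 over all genes tested. At an unadjusted *P* under 0.05, 39 were lower and 0 higher. For 44 of the 50 genes both *Eya1*cKO libraries were lower than either control, a pattern found in 30% of all genes tested. In these sorted bulk samples, fewer cells of a type and less RNA per cell cannot be told apart, and the part of the cell types whose markers moved, of the shares of unassigned reads and of depth in the lower levels was not tested.

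The count of 22 rested on both controls. With either control left out, 0 of the 50 genes passed in edgeR, although 22 and 21 were lower at unadjusted *P* under 0.05 and the median log2 fold change was -0.65 and -0.66. With *Eya1*cKO 1 or *Eya1*cKO 2 left out, more genes passed both among the 50 and among all genes tested, and the median of the 50 was -0.70 and -0.61. In the settings that kept all 4 libraries and used no replicate block, 14 genes fell throughout, namely *Polr1b*, *Ncl*, *Npm1*, *Nolc1*, *Tcof1*, *Mybbp1a*, *Ddx21*, *Nop56*, *Nop58*, *Wdr43*, *Utp20*, *Rrp12*, *Nop2* and *Noc2l*. The calls of the other 8 (*Fbl*, *Nhp2*, *Wdr75*, *Nop14*, *Heatr1*, *Bms1*, *Pes1* and *Gnl3*) ended in at least 1 of these settings. Among the 14, the replicate block ended the calls of *Polr1b*, *Nop56*, *Nop58*, *Utp20*, *Rrp12* and *Nop2* (edgeR adjusted *P* from 0.052 to 0.085).

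**Figure D1:**
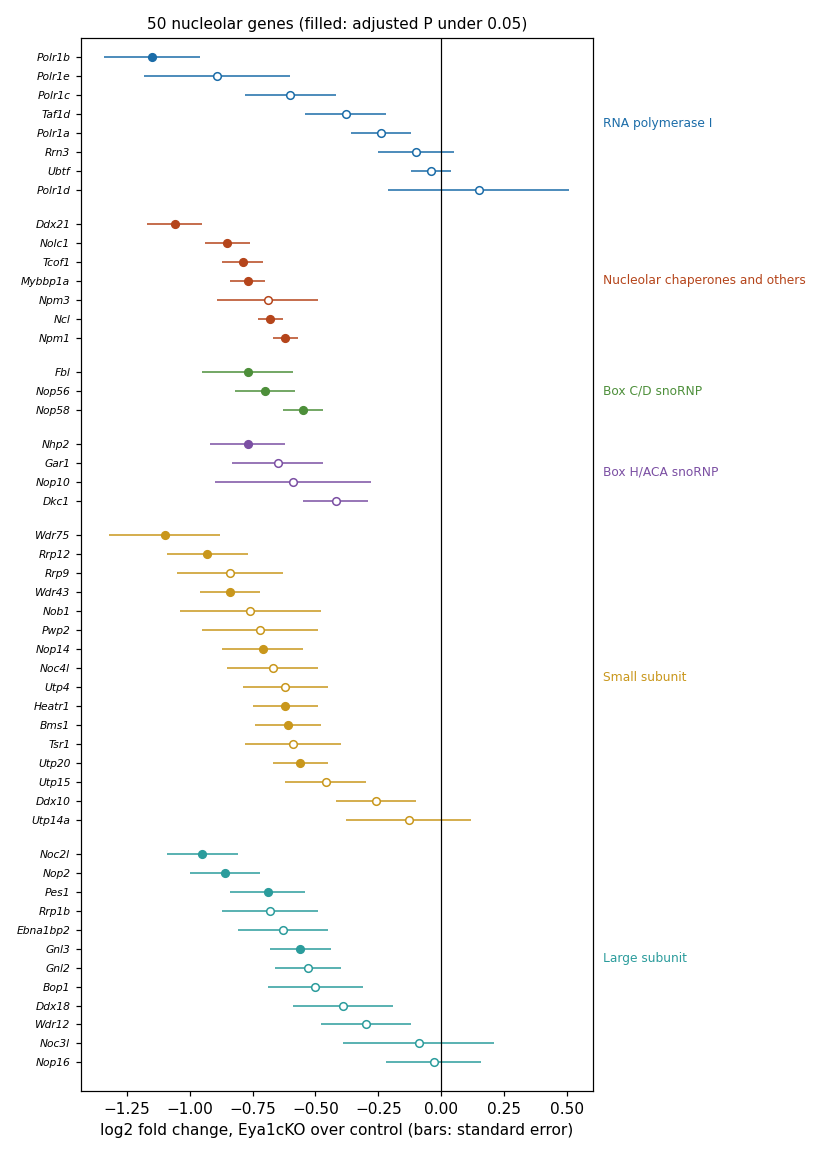
Log2 fold change of *Eya1*cKO over control (horizontal axis) for each of the 50 genes, grouped by role and sorted within the group. Points are the edgeR estimates, bars are standard errors with 2 libraries per genotype, and filled points have an adjusted *P* under 0.05. *Polr1b* at -1.15 is the lowest and *Polr1d* at 0.15 is the only point to the right of 0.

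The shift was seen in each *Eya1*cKO library. Relative to each gene's mean control CPM, the median log2 ratio over the 50 genes was -0.01 and 0.01 for the controls, -0.59 for *Eya1*cKO 1 and -0.69 for *Eya1*cKO 2. In *Eya1*cKO 1, 48 of the genes lay below their control mean, and in *Eya1*cKO 2, 46 did. The *Eya1*cKO libraries agreed less well with each other than the controls did. For 8 genes they differed by over 1.5 times, with *Eya1*cKO 1 the higher in 6 of these, and for 0 genes did the controls differ that much. Leaving out *Eya1*cKO 1 or *Eya1*cKO 2 moved several values by over 1.5 times. Without the former and without the latter, the log2 fold change was -1.42 and -0.41 for *Nob1*, -1.11 and -0.48 for *Pwp2*, -1.06 and -0.45 for *Rrp1b*, -0.82 and -0.30 for *Bop1*, -0.70 and -0.17 for *Taf1d*, -0.42 and -0.16 for *Ddx10*, and -0.46 and -0.20 for *Wdr12*. It was -0.49 and -1.08 for *Fbl*, -0.40 and -0.89 for *Ebna1bp2*, -0.20 and -0.59 for *Ddx18*, -0.12 and -0.39 for *Polr1a*, and 0.09 and -0.31 for *Rrn3*.

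**Figure D2:**
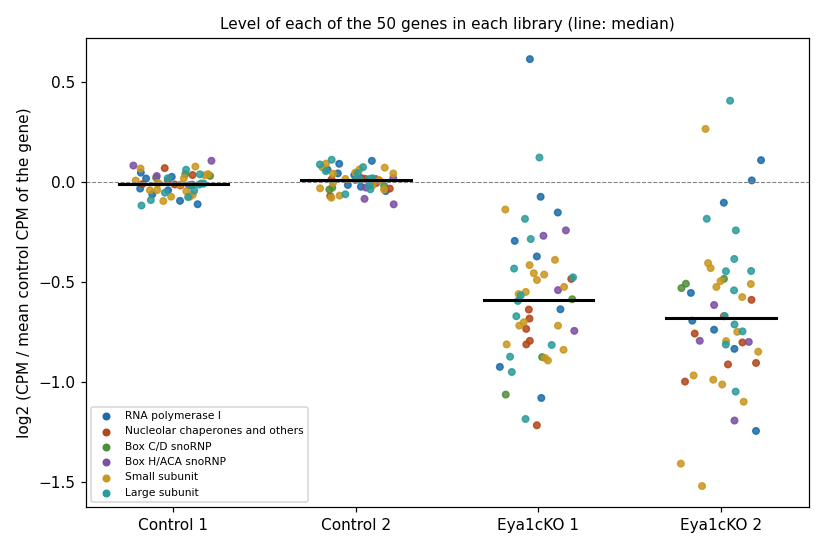
Level of each of the 50 genes in each of the 4 libraries, as log2 of CPM over the gene's mean control CPM (vertical axis), coloured by role. Each point is a gene and each black line the median, at -0.01, 0.01, -0.59 and -0.69 from left to right, and the points of both *Eya1*cKO libraries spread more widely than those of the controls.

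Among the genes of RNA polymerase I and its initiation factors, 1 of 8 fell, with a median log2 fold change of -0.31. *Polr1b*, on chr2:129100995-129126594 (plus strand, GRCm38), encodes the second largest subunit of the enzyme and had the largest decrease of the 50. It had 2028 and 2372 reads in the controls and 649 and 449 in *Eya1*cKO, or 58.1, 63.3, 28.7 and 25.6 CPM (control 1, control 2, *Eya1*cKO 1, *Eya1*cKO 2, the order used throughout). Both *Eya1*cKO libraries were below both controls, and the log2 fold change was -1.15 ± 0.19 (SE, adjusted *P* = 0.014). *Polr1a*, the gene of the largest catalytic subunit, was measured at 167, 175, 132 and 159 CPM, with a log2 fold change of -0.24 and a 95% interval of -0.52 to 0.03 (adjusted *P* = 0.21). *Polr1e* and *Polr1c*, further subunits, were at -0.89 ± 0.29 and -0.60 ± 0.18 on the log2 scale (SE) with adjusted *P* of 0.10 and 0.089 in edgeR, and did not pass the threshold although their libraries did not overlap. *Taf1d*, a component of the promoter selectivity factor SL1, was at 180, 176, 160 and 110 CPM. Its genotypes did not overlap, and the change of -0.38 ± 0.16 on the log2 scale missed the threshold (SE, edgeR unadjusted *P* = 0.049, adjusted *P* = 0.17). It shares 10.11% of its exonic length with other genes on the same strand.

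*Ubtf* and *Rrn3*, initiation factors, and the subunit gene *Polr1d* overlapped between genotypes. *Ubtf*, the upstream binding factor that opens ribosomal DNA, was the most abundant of the 8 per kilobase of exon, at 49.6 CPM per kb in the controls. It had 11000 and 12525 reads in the controls and 6954 and 5720 in *Eya1*cKO, or 315, 334, 308 and 326 CPM. These overlapped, and the 95% interval of the log2 fold change was -0.22 to 0.15. *Rrn3*, which recruits the polymerase to the promoter, had 3528, 3655, 1829 and 1871 reads, or 101, 97.6, 80.9 and 107 CPM, with an interval of -0.46 to 0.26. *Polr1d*, a small subunit shared with RNA polymerase III, had 1175, 1430, 1240 and 378 reads, or 33.6, 38.2, 54.9 and 21.5 CPM. Its *Eya1*cKO libraries lay on either side of the controls, so the fitted log2 fold change of 0.15 (interval -0.70 to 1) depended on the library. It was -0.75 (edgeR adjusted *P* = 0.0093) without *Eya1*cKO 1 and 0.59 (adjusted *P* = 0.0053) without *Eya1*cKO 2.

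Genes of nucleolar chaperones and other abundant nucleolar proteins were lower almost throughout. Of 7 genes 6 fell, with a median log2 fold change of -0.77, and the summed level went from 4650 and 4700 CPM to 2830 and 2870 CPM, 61% of the control level. *Ncl* encodes nucleolin, which binds nascent ribosomal RNA, and lies on chr1:86344719-86359400 (minus strand). It had 67908 and 74312 reads in the controls and 27492 and 21552 in *Eya1*cKO, or 1940, 1980, 1220 and 1230 CPM. The libraries of a genotype differed little and the genotypes did not overlap, with a log2 fold change of -0.68 ± 0.05 (SE) and the smallest *P* of the 50 (adjusted *P* = 7.5e-04). *Npm1*, nucleophosmin, a histone and ribosome chaperone, was the most abundant of the 50 per kilobase, at 462 CPM per kb in the controls and 301 CPM per kb in *Eya1*cKO. It had 42670, 46466, 17843 and 14336 reads, or 1220, 1240, 790 and 817 CPM, and fell by 0.62 on the log2 scale (SE 0.05, adjusted *P* = 0.0017). Reads of *Npm1* can be shared with 4 near-identical copies, which together held 9.26% as many reads. Without these 2 abundant genes, 20 of the other 48 fell and the median was -0.63.

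*Ddx21*, an RNA helicase that links RNA polymerase I transcription to rRNA processing, had the largest decrease of this group. It had 11396 and 11655 reads in the controls and 3094 and 2991 in *Eya1*cKO, or 326, 311, 137 and 170 CPM, and its log2 fold change was -1.06 ± 0.11 (SE, adjusted *P* = 0.0034). *Nolc1*, the Nopp140 chaperone of small nucleolar particles, was at 263, 268, 153 and 141 CPM, and *Tcof1*, the treacle scaffold on which polymerase I assembles, was at 323, 320, 183 and 190 CPM. *Mybbp1a*, a nucleolar Myb-binding protein with roles in rRNA synthesis and processing, was at 503, 516, 306 and 292 CPM. These 3 fell by 0.85, 0.79 and 0.77 on the log2 scale, with adjusted *P* of 0.0034, 0.0030 and 0.0020 in edgeR, and in each the genotypes were apart. *Npm3*, a relative of nucleophosmin at 66.2, 60.1, 45.1 and 31.6 CPM, was at -0.69 ± 0.20 (adjusted *P* = 0.080) and did not pass.

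**Figure D3:**
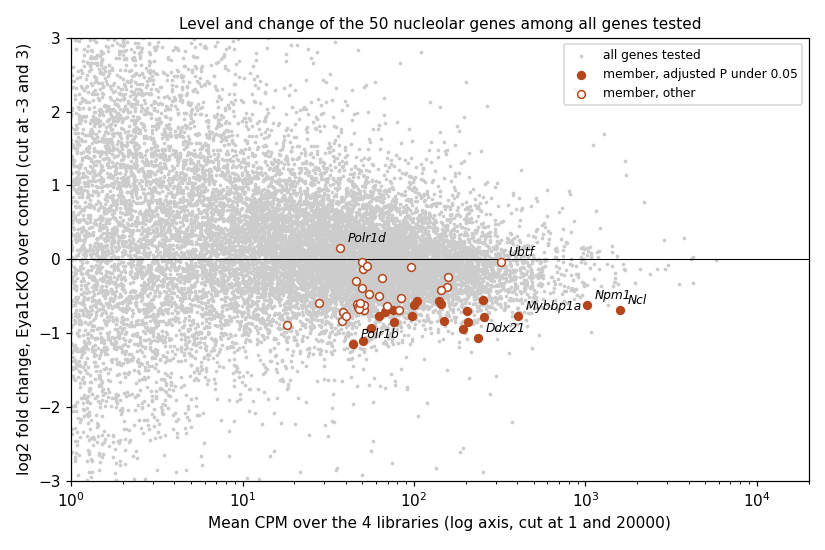
Mean CPM over the 4 libraries (horizontal log axis, drawn from 1 to 20000) against the log2 fold change of *Eya1*cKO over control (vertical axis, drawn from -3 to 3). Grey points are the genes tested, filled circles the 22 genes that fell and open circles the other 28, and the abundant *Ncl* and *Npm1* at the right lie among the filled ones at -0.68 and -0.62.

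Of the box C/D core, 3 genes are among the 50, and all 3 fell, with a median of -0.70. The fourth core protein, *Snu13*, is among the other biogenesis factors, was at 29.3, 32.1, 32.9 and 17.2 CPM with the genotypes overlapping, and did not pass (log2 fold change -0.25, interval -0.96 to 0.46, edgeR adjusted *P* = 0.63). *Nop58* had 10736 and 10912 reads in the controls and 4497 and 3679 in *Eya1*cKO, or 307, 291, 199 and 210 CPM, and fell by 0.55 on the log2 scale (SE 0.08, adjusted *P* = 0.011). Its partner *Nop56* was the most abundant of the 3 per kilobase, at 61.3 CPM per kb in the controls. It had 8896, 9286, 3094 and 3052 reads, or 255, 248, 137 and 174 CPM, with a log2 fold change of -0.70 ± 0.12 (SE, adjusted *P* = 0.016). *Fbl*, fibrillarin, is the methyltransferase of the particle and was at 125, 120, 58.6 and 87.5 CPM, with a log2 fold change of -0.77 ± 0.18 (SE, adjusted *P* = 0.043). The value of *Fbl* is uncertain, because 2 genes, *Gm5812* and *Tulp4*, hold near-identical sequence. Reads on the shared sequence alone were not counted, and all reads on these 2 genes came to 82.3% of those on *Fbl*. Its adjusted *P* in edgeR was 0.069 with thinned controls, 0.089 with no low-count filter, 0.10 with the legacy method and 0.11 with a replicate block, so that the call was lost in these.

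In the core of the box H/ACA particles, 1 of 4 fell. *Nhp2*, an RNA-binding subunit and the most abundant of the 4 per kilobase (68.9 CPM per kb in the controls), had 2915 and 2786 reads in the controls and 1064 and 798 in *Eya1*cKO. These corresponded to 83.5, 74.4, 47.1 and 45.5 CPM, and the log2 fold change was -0.77 ± 0.15 (SE, adjusted *P* = 0.028). This call was lost with no low-count filter (edgeR adjusted *P* = 0.053) and with a replicate block (0.098). *Dkc1*, dyskerin, the pseudouridine synthase, was at 162, 166, 136 and 107 CPM. *Gar1* was at 58.8, 56.5, 39.6 and 33.1 CPM and *Nop10* at 36.4, 31.3, 28.6 and 14.8 CPM. In all 3 both *Eya1*cKO libraries were below both controls, but with log2 fold changes of -0.42, -0.65 and -0.59 their adjusted *P* of 0.093, 0.066 and 0.25 missed the threshold in edgeR. The value of *Nop10* was -1.2 (edgeR adjusted *P* = 6.1e-04) without *Eya1*cKO 1 and -0.26 (adjusted *P* = 0.30) without *Eya1*cKO 2.

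Of the 16 genes for the small subunit processome and later 40S maturation, 7 fell, and all 16 had a log2 fold change below 0 with a median of -0.65. *Wdr75*, a UTP-A component, had 2412 and 2613 reads in the controls and 877 and 425 in *Eya1*cKO, or 69.1, 69.8, 38.8 and 24.2 CPM. The *Eya1*cKO libraries differed by 1.6 times but both lay well below the controls, and the log2 fold change was -1.10 ± 0.22 (SE, adjusted *P* = 0.025). *Wdr43*, another UTP-A component, had the smallest *P* and, at 40 CPM per kb in the controls, the highest level of the 16. Its reads were 6636, 7202, 2628 and 1687, or 190, 192, 116 and 96.2 CPM, with a log2 fold change of -0.84 ± 0.12 (SE, adjusted *P* = 0.0081). *Rrp12*, a HEAT-repeat factor of subunit maturation and export, had 2690, 2626, 895 and 659 reads, or 77, 70.1, 39.6 and 37.6 CPM, and was at -0.93 ± 0.16 (SE, adjusted *P* = 0.017). *Nop14*, *Heatr1*, the GTPase gene *Bms1* and *Utp20* also fell, by 0.71, 0.62, 0.61 and 0.56 on the log2 scale. With the legacy method the edgeR adjusted *P* was 0.067 for *Wdr75*, 0.082 for *Nop14*, 0.057 for *Heatr1* and 0.064 for *Bms1*, and with no low-count filter it was 0.053, 0.081, 0.057 and 0.064, so that these 4 calls were lost there. Those of *Nop14* and *Bms1* were also lost with thinned controls (0.065 and 0.057).

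The other 9 small subunit genes did not pass. *Rrp9*, a U3 particle protein, was at 45.5, 51.8, 29.9 and 24.1 CPM with an adjusted *P* of 0.053. *Nob1*, the endonuclease of the last cleavage of 18S rRNA, was at 49.8, 52.7, 39.1 and 19.3 CPM, so that its *Eya1*cKO libraries differed by 2.02 times, and its log2 fold change was -0.76 ± 0.28 (SE, adjusted *P* = 0.13). *Pwp2*, *Noc4l*, *Utp4*, *Tsr1* and *Utp15* lay between -0.72 and -0.46, with edgeR adjusted *P* from 0.065 to 0.11. The helicase gene *Ddx10* was at -0.26 (interval -0.63 to 0.12). *Utp14a*, with 1792, 1957, 794 and 1092 reads or 51.3, 52.3, 35.1 and 62.2 CPM, overlapped between genotypes, and its log2 fold change of -0.13 (interval -0.73 to 0.47) became 0.25 (edgeR adjusted *P* = 0.18) without *Eya1*cKO 1 and -0.58 (adjusted *P* = 0.0071) without *Eya1*cKO 2. Of these, *Tsr1* shares 32.32% of its exonic length with *Srr* and *Utp14a* 11.45% with *9530027J09Rik*, both on the opposite strand.

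In large subunit assembly 4 of 12 genes fell, with a median of -0.54. *Noc2l*, a subunit of the NOC complexes of 60S assembly, had the smallest *P* and the highest level per kilobase of the 12, at 88.1 CPM per kb in the controls. It had 8755 and 9518 reads in the controls and 2502 and 2697 in *Eya1*cKO, or 251, 254, 111 and 154 CPM, and its log2 fold change was -0.95 ± 0.14 (SE, adjusted *P* = 0.010). It shares 20.86% of its exonic length with *Samd11* on the opposite strand. *Nop2*, a cytosine methyltransferase of 28S rRNA, was at 97.2, 99.6, 50.9 and 58.6 CPM, a log2 fold change of -0.86 ± 0.14 (SE, adjusted *P* = 0.014). *Pes1*, of the PeBoW complex, and *Gnl3*, nucleostemin, a nucleolar GTPase abundant in stem and progenitor cells, fell by 0.69 and 0.56 on the log2 scale, with adjusted *P* of 0.036 and 0.034 in edgeR. Both calls were lost with thinned controls (0.061 and 0.051), the legacy method (0.068 and 0.059) and no low-count filter (0.070 and 0.065).

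The partners of *Pes1* in the PeBoW complex, *Bop1* and *Wdr12*, were at -0.50 (interval -0.94 to -0.06) and -0.30 (interval -0.73 to 0.13) and did not pass, with edgeR adjusted *P* of 0.14 and 0.32. *Gnl2*, *Rrp1b*, *Ebna1bp2* and *Ddx18* were at -0.53, -0.68, -0.63 and -0.39, with adjusted *P* of 0.053, 0.067, 0.072 and 0.25 in edgeR. The value of *Ddx18* is uncertain, because 2 near-identical copies held 19.8% as many reads. *Noc3l*, a partner of *Noc2l*, had 1806, 2084, 761 and 1248 reads, or 51.7, 55.7, 33.7 and 71.1 CPM. Its *Eya1*cKO libraries lay on either side of the controls, and its log2 fold change of -0.09 (interval -0.80 to 0.63) became 0.39 (edgeR adjusted *P* = 0.031) without *Eya1*cKO 1 and -0.69 (adjusted *P* = 0.0023) without *Eya1*cKO 2. *Nop16* had 1648, 1998, 1236 and 746 reads, or 47.2, 53.4, 54.7 and 42.5 CPM, and its log2 fold change of -0.03 (interval -0.48 to 0.41) became 0.01 when scaled by library totals alone.

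The 22 genes that fell had a median of 6150 reads in the controls and a median SE of 0.12, and the other 28 had 2100 reads and 0.18. For 25 of the 50 genes the 95% interval of the log2 fold change lay above -1, which is a halving.

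Further genes of the pathway, not among the 50, were lower too. Of 110 other ribosome biogenesis factors, all tested, 18 fell and 0 rose (0 rose also by DESeq2), or 16.4% against 4.41% of all genes. Their median log2 fold change was -0.42, and 99 lay below 0. Among these were the large subunit factor *Rrs1* (95.3, 93.8, 42.5 and 43.6 CPM, -1.14 ± 0.14), the giant AAA ATPase gene *Mdn1* (191, 199, 98.5 and 124 CPM, -0.82 ± 0.13) and *Nol11* of the small subunit processome (83.7, 84.6, 51.6 and 49.1 CPM, -0.74 ± 0.14), with adjusted *P* of 0.0058, 0.011 and 0.023 in edgeR. *Nsa2*, *Exosc7* and *Ddx49* had the smallest *P* above 0, at 0.33, 0.23 and 0.17, and none of these 3 passed (adjusted *P* of 0.14, 0.58 and 0.62 in edgeR). With either control left out 0 of the 110 passed in edgeR, with 22 and 16 at unadjusted *P* under 0.05.

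The ribosomal protein genes, whose products are assembled by this machinery, had a median log2 fold change of -0.08. Of 79 tested, 2 fell (2.53%) and 1 rose, where 4.41% of all genes tested fell and 5.15% rose. Below 0 lay 57, or 72.2%, against 48.9% of all genes tested. The values ran from -2.20 (*Rpl23a*) to 0.35 (*Rpl24*), neither of which passed. For 34 of the 79 both *Eya1*cKO libraries were lower than either control, against 30% of all genes tested. Whether a gene passed depended on which library was left out. The median log2 fold change was -0.09 without *Eya1*cKO 1, -0.10 without *Eya1*cKO 2, -0.14 without control 1 and -0.05 without control 2. *Rplp2* was at 965, 994, 836 and 821 CPM and *Rpl32* at 338, 363, 273 and 280 CPM, with log2 fold changes of -0.24 ± 0.06 and -0.34 ± 0.08 (SE, adjusted *P* of 0.041 and 0.043 in edgeR). *Rpl26* was at 348, 363, 447 and 440 CPM, a log2 fold change of 0.32 ± 0.07 (SE, adjusted *P* = 0.035). *Rpl4*, *Rps7* and *Rpl10* were at -0.18, 0.28 and 0.16 and did not pass. With controls thinned to the depth of *Eya1*cKO, or with the legacy edgeR method, the calls of *Rplp2*, *Rpl32* and *Rpl26* were all lost. With library totals as the scale 0 of the 79 fell (12 at unadjusted *P* under 0.05 in edgeR). Ribosomal protein genes have many near-identical pseudogenes, so that their counts are uncertain.

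**Figure D4:**
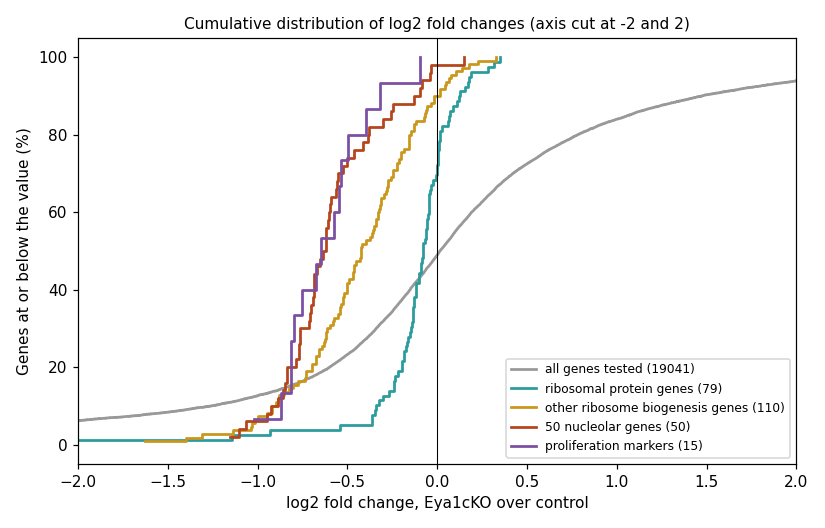
Cumulative percentage of genes (vertical axis) at or below each log2 fold change of *Eya1*cKO over control (horizontal axis, drawn from -2 to 2) for the 50 genes, 110 other biogenesis genes, 79 ribosomal protein genes, 15 proliferation markers and all 19041 genes tested. The curve of the 50 genes (median -0.63) runs beside that of the proliferation markers (median -0.64), left of the other biogenesis genes (median -0.42) and of the ribosomal protein genes (median -0.08).

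Proliferation markers moved with the nucleolar genes. Of 15, 12 fell, with a median of -0.64, and their summed level went from 4730 and 4670 CPM to 3190 and 3170 CPM, 67.6% of the control level, where the 50 nucleolar genes were at 65%. *Mcm7*, a subunit of the replicative helicase, and *Pcna*, the replication clamp, were both at -0.82 (edgeR adjusted *P* of 0.0034 and 0.0078), and *Cdk1* was at -0.10 (adjusted *P* = 0.58). The part of fewer dividing cells in the lower levels of the nucleolar genes was not tested.

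In the Myc and Max network, 1 of 12 genes fell (8.33%) and 1 rose, with a median of -0.27. Among all genes tested, 4.41% fell and 5.15% rose. *Mycn*, the Myc family member best known in embryonic progenitors, was at 96.9, 105, 35.4 and 59.8 CPM, so that the genotypes were apart, with a log2 fold change of -1.12 ± 0.22 (SE, adjusted *P* = 0.024). *Myc* was at 69.8, 64.9, 48.1 and 46.6 CPM, at -0.50 ± 0.15 on the log2 scale, which missed the threshold (SE, adjusted *P* = 0.090). *Mxd4*, which competes with Myc proteins for Max, rose from 126 and 132 CPM to 183 and 211 CPM, a log2 fold change of 0.61 ± 0.11 (SE, adjusted *P* = 0.019). Both calls were lost without either control (edgeR adjusted *P* of 0.37 and 0.47 for *Mycn*, and 0.51 and 0.47 for *Mxd4*) and with a replicate block (0.065 and 0.062), and that of *Mycn* also with no low-count filter (0.055) and the legacy method (0.076). *Max*, the common partner, was at -0.44 (adjusted *P* = 0.14) and *Mlxip* at -0.44 (adjusted *P* = 0.066). *Mxi1*, *Mycl*, *Mga*, *Mnt*, *Mxd1*, *Mxd3* and *Mlx* were at -0.46, -0.36, -0.18, -0.10, -0.07, 0.17 and 0.30, with edgeR adjusted *P* from 0.28 to 0.88. Without *Eya1*cKO 1 and without *Eya1*cKO 2, *Mxi1* was at -1.02 and -0.14, *Mga* at -0.40 and -0.02, *Mxd3* at 0.32 and 0.01, and *Mlx* at 0.02 and 0.47. Among 12 p53 target genes, which can respond when ribosome assembly is disturbed, *Ccng1* and *Trp53inp1* rose by 0.69 and 1.03 and *Phlda3* fell by 1.47 on the log2 scale. The other 9 did not pass, and 8 of the 12 (66.7%) lay below 0, against 48.9% of all genes tested. Among those that did not pass, *Cdkn1a* was at 0.39, *Mdm2* at 0.04 and *Bax* at -0.80, and *Eda2r* had 67 and 56 reads in the controls against 6 and 0.

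The promoters of the 50 genes were searched for the E-box that Myc and Max bind, because the genes moved together. Promoters of 250 bases before to 50 bases after the RefSeq start (GRCm38.p6) were matched for 44 of the 50. The letters CACGTG, a palindrome and so the same on both strands, were found in 8 of the 44, or 18.2%, against 8.09% of 27025 promoters and 11.1% of the 12256 that belong to tested genes. The ETS-family letters CCGGAAG, searched on both strands, were in 16, or 36.4%, against 9.93% and 17.5%. Of the 8 genes with the E-box 5 fell (*Mybbp1a*, *Wdr43*, *Utp20*, *Nop2* and *Pes1*), and *Rrn3*, *Utp4* and *Tsr1* did not pass. Of the 16 with the ETS letters 6 fell. Beside both counts stand the 22 of all 50 genes (44%) that fell, and a link of either motif to the fall was not tested. CCAAT was in 31.8% of the 44, against 42% of tested genes. The NRF1 core CGCATGCG and the E2F letters TTTCCCGC were in 2 promoters each (4.55%), against 3.76% and 2.16% of tested genes. The YY1 letters AAGATGGCG were in 0, against 2.98%. Promoters of 2 genes with an E-box that fell and of *Rrn3*, which has 2 E-boxes and did not pass, are shown from 5' to 3' on the plus strand, chosen after their values were seen, with E-box and ETS letters in capitals. They lie at chr11:72441077-72441376 for *Mybbp1a*, chr6:125131633-125131932 for *Nop2* and chr16:13780449-13780748 for *Rrn3*.
Mybbp1a: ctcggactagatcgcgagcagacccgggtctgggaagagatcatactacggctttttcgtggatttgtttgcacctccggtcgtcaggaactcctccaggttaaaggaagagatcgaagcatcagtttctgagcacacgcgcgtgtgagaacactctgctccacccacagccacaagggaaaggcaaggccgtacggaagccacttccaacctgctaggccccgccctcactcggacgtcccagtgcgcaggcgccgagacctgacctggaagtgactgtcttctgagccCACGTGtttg
Nop2: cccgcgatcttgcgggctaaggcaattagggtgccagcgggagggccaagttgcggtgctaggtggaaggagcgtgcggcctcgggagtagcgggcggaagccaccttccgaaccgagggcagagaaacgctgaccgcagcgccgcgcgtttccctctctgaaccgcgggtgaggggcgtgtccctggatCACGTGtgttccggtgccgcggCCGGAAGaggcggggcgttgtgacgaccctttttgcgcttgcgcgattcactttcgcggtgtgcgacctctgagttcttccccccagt
Rrn3: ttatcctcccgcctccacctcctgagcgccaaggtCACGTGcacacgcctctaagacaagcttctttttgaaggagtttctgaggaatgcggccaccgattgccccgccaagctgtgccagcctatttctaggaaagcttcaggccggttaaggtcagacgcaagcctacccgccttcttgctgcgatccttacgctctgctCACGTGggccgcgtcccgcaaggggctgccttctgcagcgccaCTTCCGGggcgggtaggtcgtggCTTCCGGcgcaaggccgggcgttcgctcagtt
In *Mybbp1a* the E-box begins 40 bases after the start. In *Nop2* it begins 60 bases before the start, and the ETS letters begin 38 bases before the start, downstream of the E-box. In *Rrn3* the E-boxes begin 215 and 48 bases before the start, and the ETS letters, here on the minus strand, 5 bases before and 18 bases after it. A match of letters describes the sequence and says nothing of binding in these cells.

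Small nucleolar RNA (snoRNA) genes are annotated within some of these genes. In GENCODE M21, 29 lay within 8 of the 50 genes (*Taf1d*, *Ncl*, *Nop56*, *Nop58*, *Dkc1*, *Wdr43*, *Tsr1* and *Gnl3*), and 18 of the 29 overlapped an annotated exon of the gene around them. No read was counted in any library on 17 of the 29, and 15 of these 17 overlapped such an exon, where reads can be set aside as ambiguous. The largest count was 225 reads in 1 library, and no change of the snoRNAs was drawn from these counts.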

How the data were processed

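The authors sequenced mRNA of 4 libraries of 5000 sorted tdTomato+ cells (2 control and 2 *Eya1*cKO). Per the methods and the submitters' processing notes, reads of strand-specific, randomly primed libraries were aligned to mm10 with HISAT2, and the authors counted them on Ensembl genes with HTSeq. The deposited values are these raw counts. The strand setting of the counting is not given in the sources used here, so genes with overlapping antisense genes are uncertain. Exons of 22 of the 50 genes overlap those of another gene, 20 of them on the opposite strand, and 4 share at least 10% of their exonic length. The libraries of a genotype were sorted at the same time from combined suspensions, so *P*-values measure the spread between these samples, which may be technical. Libraries of a genotype differed by more than sampling noise (chi-square over degrees of freedom of 9.33 for the controls and 46.5 for *Eya1*cKO) and were all used.

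The test used edgeR 4.0.16 under R 4.3.3. Rows that name no gene were left out of library sizes. Genes were kept by filterByExpr with a minimum count of 10, scaled by TMM and tested with glmQLFit and glmQLFTest, genotype being the only term, with Benjamini-Hochberg adjustment over all 19041 genes and a threshold of 0.05. CPM are counts scaled by the TMM-adjusted totals, given in the order control 1, control 2, *Eya1*cKO 1, *Eya1*cKO 2. Alternatives were other scalings, filters and tests, DESeq2 1.42.0, thinned controls, leaving out each library in turn, and a replicate block. Symbols were paired with 52403 of the 52636 identifiers, coordinates come from GENCODE M21 (GRCm38), and near-identical copies are genes with at least 95% identity over at least 25% of a transcript. Reads of such copies were summed over the whole gene. Promoter sequences are from RefSeq.

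The members and lists were chosen with earlier results of these data known. All 50 genes are named. Values in every library are given for the gene lowest in *P* on either side and of highest level per kilobase in each role group, for the 5 largest and 5 smallest changes and for positive changes. *Eya1*, the Myc network and, of the other biogenesis and ribosomal protein lists, the 3 genes lowest in *P* on either side are also named, and other genes named were chosen after their values were seen.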

Additional observations from a re-analysis of the deposited data

How the results depend on the processing

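The median log2 fold change of the 50 genes lay between -0.70 and -0.59 in every setting, the extremes being the fit without *Eya1*cKO 1 and the one scaled by library totals (spread between libraries of a group 0.04), and 48 or more genes stayed below 0 except 47 without *Eya1*cKO 1. The number that fell was 22 with DESeq2's size factors, library totals or robust fitting, 29 with at least 10 counts in every library or DESeq2's Wald test, 17 with controls thinned to the depth of *Eya1*cKO, 15 with the legacy method and 14 with no low-count filter, where 31192 genes were tested. Leaving out one library gave 0 to 43 genes lower (0 without either control) and 0 to 1 higher (*Noc3l* without *Eya1*cKO 1 and *Polr1d* without *Eya1*cKO 2), 0 to 62 other biogenesis genes lower and 0 to 1 higher, 0 to 26 ribosomal protein genes lower and 0 to 9 higher, 23 to 7925 genes called in all, and medians of -0.70 to -0.61. The lone library was then assumed to vary like the other genotype, and the cause of the difference between leaving out a control and an *Eya1*cKO library was not tested.

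For all genes called, against 1820, the counts were 3102 with the Wald test, 1195 with thinned controls, 1096 with the legacy method and 1055 with no filter. Other biogenesis genes lower numbered 30, 8, 7 and 5 in these and 28 with at least 10 counts in every library. Ribosomal protein genes lower numbered 8 with the Wald test, 6 with at least 10 counts in every library, and 0 with thinned controls, the legacy method or library totals, with 14, 12 and 12 at unadjusted *P* under 0.05 in edgeR. Ribosomal protein genes higher numbered 2 with the Wald test and 0 with thinned controls, the legacy method or no filter. Directions turned for *Nop16* (0.01 with library totals, and -0.25 to 0.10 leaving out one library) and, without *Eya1*cKO 1, for *Noc3l* (-0.69 to 0.39 leaving out one library), *Utp14a* (-0.58 to 0.25), *Mxd1* (-0.35 to 0.20), *Rrn3* (-0.31 to 0.09) and *Polr1d* (-0.75 to 0.59).

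The replicate numbers shared by control and *Eya1*cKO libraries were not taken as a pairing. The deviations of control 1 and *Eya1*cKO 1 from their group means had a correlation of 0.0063 over 10705 genes. With only 2 numbers, this cannot show whether the libraries were paired. With the replicate block, 8 of the 50 genes fell, and 2 other biogenesis genes, 0 ribosomal protein genes in either direction and 621 genes in all were called, while the median stayed at -0.63. The *Eya1*cKO libraries were the shallower ones, and with controls thinned to their depth 17 genes fell.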
